A study of Eutrema salsugineum with 2 samples.

Results

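Chitinases cut chitin, a polymer of fungal cell walls and insect cuticles, and trypsin inhibitors can block the digestive proteases of insects that feed on leaves. Described here are 3 of the 17888 genes in the deposited table of *Eutrema salsugineum*: a chitinase pair, Thhalv10001590m.g and Thhalv10001652m.g, which share the best *A. thaliana* hit AT2G43590, and Thhalv10001697m.g, whose best hit is AT2G43520 (TI2, trypsin inhibitor 2). All 3 lie on scaffold 22, and they were picked by gene ID with their higher read numbers in YK already known. Their reads are therefore given as a description, with no test.

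Both accessions, SH from Shandong and YK from the Yukon, were sampled as whole rosettes at an age of 4 weeks, after growth with ample water under a photoperiod of 12 h, at 22 °C by day and 20 °C by night. SH carries the label of less rosette biomass, thicker leaves and less drought tolerance, and YK of more biomass, thinner leaves and more drought tolerance. Harvest was in the middle of the night. Each accession gave 1 library of pooled plants, with 482275 reads on genes in SH and 431705 in YK; the submitters' design note puts 5 plants in each pool, while the extraction notes describe several such pools. Of 34 leaf photosynthesis genes sought by best hit, 1 was in the annotated rows used here, a thylakoid membrane protein gene (Thhalv10001663m.g, hit AT2G46820), with 441 reads in SH and 327 in YK.

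Plant chitinases of the kind encoded at AT2G43590 act on chitin outside the plant cell, and many are made more strongly after infection or wounding. The fragments they release can be sensed by receptor kinases at the cell surface. TI2 belongs to the mustard-type trypsin inhibitors, small secreted proteins held together by disulfide bonds and found in the mustard family. In *A. thaliana* the genes for these inhibitors, for related knottin proteins and for several chitinases stand close together on chromosome 2. These roles are known from *A. thaliana* and were not measured in *E. salsugineum*. No sequences of these genes were in the sources used here, so none is shown.

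The chitinase gene Thhalv10001652m.g was the most abundant of the 3. It lies on scaffold 22 of the JGI genome, from 152523 to 154023, and drew 145 reads from SH and 340 from YK. As RPM, reads scaled by the library's reads on genes, this was 301 in SH (95% interval 254 to 354) and 788 in YK (706 to 876). YK had 2.34 times the reads of SH, or 1.23 on the log2 scale (95% limits 0.94 to 1.52). By raw reads the gene ranked 466 in SH and 141 in YK among all genes.

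The other chitinase gene of the pair, Thhalv10001590m.g, comes just before it in scaffold order, from 149756 to 150861. It drew 33 reads from SH and 102 from YK, which is 68.4 RPM (interval 47.1 to 96.1) and 236 RPM (193 to 287). YK again had the higher value, 3.09 times the reads of SH, and the log2 ratio of YK to SH was 1.61 (95% limits 1.05 to 2.24). The rank of this gene by raw reads was 2427 in SH and 681 in YK.

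TI2, Thhalv10001697m.g, lies from 136862 to 137576 on the same scaffold. It drew 31 reads from SH and 83 from YK, or 64.3 RPM (interval 43.7 to 91.2) and 192 RPM (153 to 238). Its reads in YK were 2.68 times those in SH. On the log2 scale this is 1.41 (95% limits 0.81 to 2.07), and the rank by raw reads was 2562 in SH and 889 in YK.

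Log2 ratios have 0.5 reads added to each count and use reads as deposited, since the median-of-ratios size factors were 1.00 for both libraries. With total reads as the scaling each log2 ratio is higher by 0.16, so values less than 0.16 below 0 in what follows turn positive. Intervals are 95% Clopper-Pearson intervals that cover counting error only, and 1 library per accession leaves these differences without a replicate check. In whole rosettes, fewer cells of a type and less RNA per cell cannot be told apart.

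A total of 10036 genes had 10 or more reads over both libraries. Among them, 1077 (10.7%) had at least 2-fold more reads in YK and 1071 (10.7%) at least 2-fold fewer. The median log2 ratio over these genes was 0.00. All 3 genes passed the 2-fold mark, as their selection implies, so nothing is read from that count. Ratios this large were less common among well covered genes: of the 1579 genes with at least 100 reads, 67 (4.24%) had at least 2-fold more reads in YK and 111 (7.03%) at least 2-fold fewer. Of the 230 genes with as many reads as Thhalv10001652m.g, itself included, 4 had a ratio at least as high and 8 a ratio as far in the other direction. The corresponding numbers were 13 and 29 of 1156 genes for Thhalv10001590m.g, and 26 and 44 of 1379 genes for TI2. The 3 genes were chosen with these ratios known, so the numbers describe their place and are not a test.

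**Figure D1:**
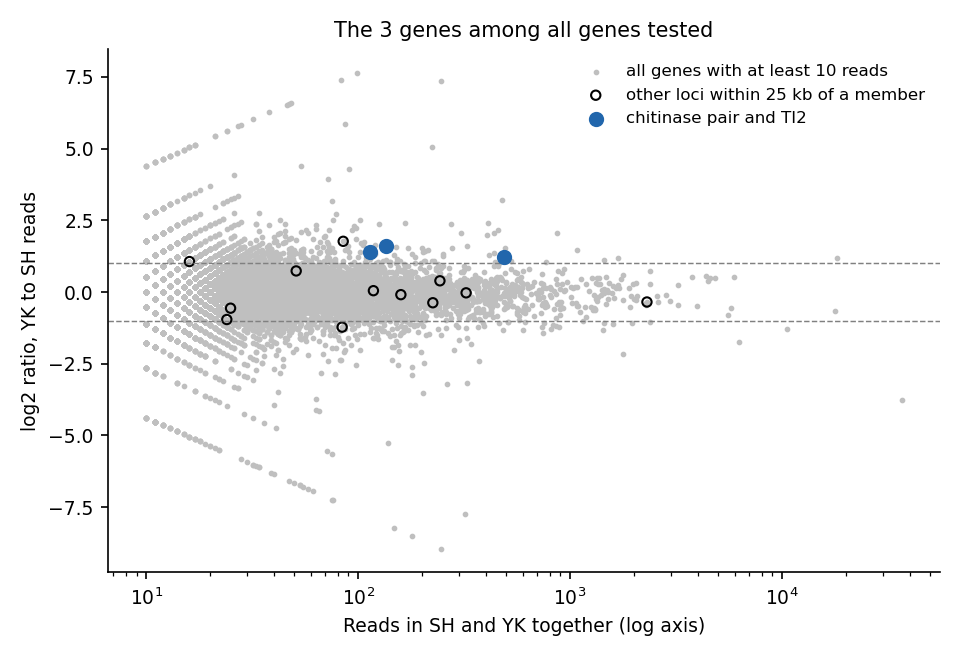
Log2 ratio of YK to SH reads (0.5 reads added) against the reads of both libraries together on a log axis, for the 10036 genes with at least 10 reads (grey), other loci within 25 kb of the chitinase pair or TI2 (open circles) and the 3 genes (blue). The dashed lines mark 2-fold; the blue points lie at 1.23, 1.41 and 1.61, inside the range of grey points with similar read numbers.

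Within the pair, the copy with more reads was the same in both libraries. Per kb of locus, introns included, Thhalv10001652m.g reached 96.6 reads in SH and 227 in YK, and Thhalv10001590m.g reached 29.8 and 92.2. The level per kb of Thhalv10001652m.g was thus 3.24 times that of its partner in SH and 2.46 times in YK. Of the reads on the pair, Thhalv10001590m.g took 33 of 178 in SH, or 18.5% (interval 13.1 to 25%), and 102 of 442 in YK, or 23.1% (interval 19.2 to 27.3%). The intervals of these shares overlapped, and a change in the balance of the copies was not detectable at this depth. TI2, a short locus, had 43.4 reads per kb in SH and 116 in YK, between the levels of the chitinase copies in each library. The counts hold uniquely mapped reads only, so reads that fit both copies equally well are missing and the split between the copies is uncertain.

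The chitinase copies stand next to each other, with 1661 bp between them and no other listed locus in that gap. TI2 lies on the lower-numbered side, 12179 bp from the nearer copy, with 6 listed loci in between. In total 18 loci lie within 25 kb of a member, spanning 55.6 kb from 119718 to 175360. Of these, 17 have a best hit on *A. thaliana* chromosome 2, running from AT2G43490 to AT2G43650. Their numbers fall in 1 of the 16 steps along the scaffold, where AT2G43520 (TI2) comes after AT2G43535. On the whole scaffold, 307 of the 328 steps between such hits rise or stay equal, and these numbers follow the order of genes on the *A. thaliana* chromosome. The table lists only genes with reads, so unlisted genes may lie in the gaps, the widest of which near the pair is between Thhalv10001788m.g, ending at 157095, and Thhalv10001579m.g, starting at 166294.

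**Figure D2:**
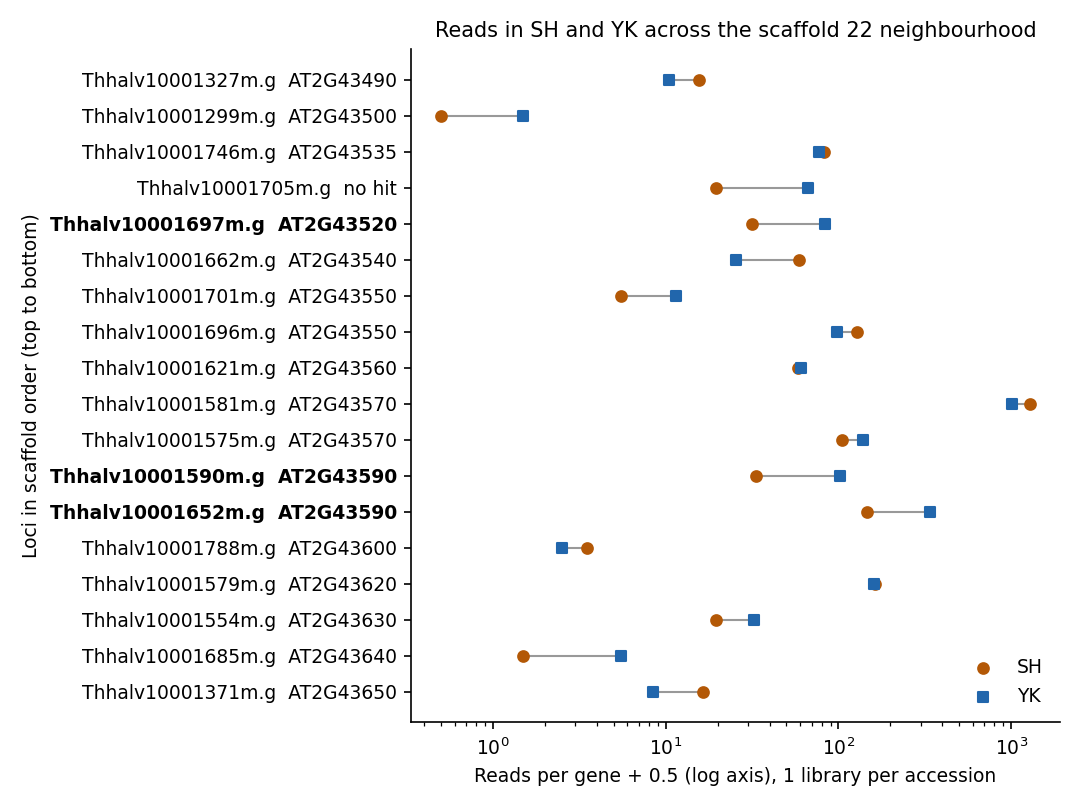
Reads plus 0.5 on a log axis in the SH library (circles) and the YK library (squares) for the 18 loci within 25 kb of the chitinase pair or TI2, in scaffold order with their best *A. thaliana* hits; the 3 genes are in bold. The squares lie to the right of the circles for all 3, while the most abundant locus, Thhalv10001581m.g, has 1289 reads in SH and 1014 in YK.

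The higher read numbers in YK did not extend over the whole neighbourhood. Of the 15 flanking loci, 12 had at least 10 reads, and their log2 ratios ran from -1.22 to 1.77 with a median of -0.06. At least 2-fold more reads in YK were found at 2 of the 12 and at least 2-fold fewer at 1, or 3 of 12 in either direction, against 10.7% in each direction and 21.4% in either over all genes. The other 9 stayed within 2-fold. An exact binomial test of the reads against equal shares, two-sided and adjusted by Benjamini-Hochberg over the 10036 genes, called 2 of the 12 (adjusted p under 0.05 and at least 2-fold); over the whole table it called 6.62% of genes, 2.74% with more reads in YK and 3.88% with fewer. This test compares the 2 libraries and not the accessions.

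Both flanking loci that the test called stand directly beside TI2, and they differ in opposite directions. Thhalv10001705m.g, for which the sources give no *A. thaliana* hit, lies from 135225 to 135920, with 941 bp between it and TI2. SH gave 19 reads and YK 66, so that its log2 ratio was 1.77 (95% limits 1.04 to 2.62; exact binomial test, adjusted p = 1.11e-05). Thhalv10001662m.g, with the hit AT2G43540, lies 505 bp past TI2 on the other side, from 138082 to 138827. SH gave 59 reads and YK 25, so that its log2 ratio was -1.22 (95% limits -1.98 to -0.54; exact binomial test, adjusted p = 0.00453). With edgeR's exact test at an assumed coefficient of variation of 0.2 or 0.4, neither was called and the count in the neighbourhood was 0.

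Among the 74 scaffold 22 loci with at least 50 reads, 4 had a ratio at least as high as that of Thhalv10001652m.g, the lowest of the 3. They were the 3 genes themselves, which the cut-off takes in because they set it, and Thhalv10001705m.g. That locus reached 50 reads only through its 66 in YK, as SH gave 19. Over the whole table, 707 of the 10036 genes with at least 10 reads (7.04%) had a ratio as high, a share at a lower read minimum. The count of 4 is thus a description and no test. With 2 libraries the ratio is the only measure of likeness, and a similar ratio says nothing of shared control. Over all 214 scaffold 22 loci with at least 10 reads, 18 (8.41%) had at least 2-fold more reads in YK and 25 (11.7%) at least 2-fold fewer, with a median log2 ratio of 0.00. Of the 213 pairs of neighbours among these loci, 3 had both loci at least 2-fold higher in YK and 2 had both at least 2-fold lower. Those higher in YK were Thhalv10001705m.g with TI2, the chitinase pair, and Thhalv10001335m.g with Thhalv10001345m.g; the first and second of these contain chosen genes.

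**Figure D3:**
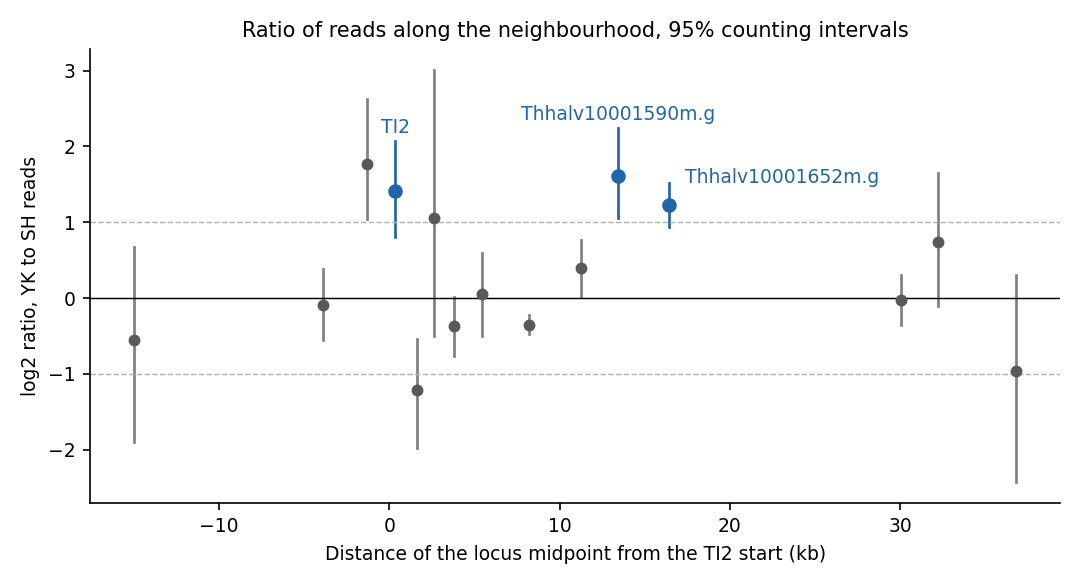
Log2 ratio of YK to SH reads, with 95% counting intervals, for the loci of the neighbourhood with at least 10 reads, against the distance of the locus midpoint from the start of TI2 in kb. TI2 and the chitinase pair (blue) lie at 1.41, 1.61 and 1.23; the loci between them range from -1.22 to 1.06, and the dashed lines mark 2-fold.

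The chitinase pair belongs to a cluster of 6 chitinase loci by best hit. Before the pair stand the loci Thhalv10001581m.g and Thhalv10001575m.g, which share the hit AT2G43570 (CHI), and after it come Thhalv10001788m.g (hit AT2G43600) and Thhalv10001579m.g (hit AT2G43620). The chitinase list of 24 *A. thaliana* genes found no locus outside this cluster in the annotated rows, which cover scaffold 22 except 1 newly assembled locus but only a small part of the other scaffolds. Thhalv10001581m.g, from 144393 to 145680, was by far the most abundant, at 1289 SH and 1014 YK reads, and ranked 26 and 27 by raw reads. Its log2 ratio was -0.35 (95% limits -0.47 to -0.23; exact binomial test, adjusted p = 5.04e-07), past the p threshold but within 2-fold and so not called. Its partner Thhalv10001575m.g, which stands 1029 bp before the pair, gave 105 SH and 138 YK reads (log2 ratio 0.39, 95% limits 0.02 to 0.77; exact binomial test, adjusted p = 0.223).

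Of the other loci in the cluster, Thhalv10001579m.g gave 163 SH and 160 YK reads (log2 ratio -0.03, 95% limits -0.35 to 0.30). Thhalv10001788m.g had 3 and 2 reads, too few for the test. The 3 tested loci outside the chosen pair ran from -0.35 to 0.39, with a median log2 ratio of -0.03 against 0.00 over all genes tested. None of them was past 2-fold, against 10.7% of all genes in each direction. Each had at least 100 reads, and among such genes the shares were lower, 4.24% higher in YK and 7.03% lower in YK.

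Summed over the cluster, chitinase reads were nearly equal in the libraries, at 1738 in SH and 1756 in YK (log2 ratio 0.01, interval -0.08 to 0.11). Scaled by library the sums were less close, as the cluster made up 0.360% of all SH reads (3604 RPM) and 0.407% in YK (4068 RPM). Within it the make-up differed. The pair held 178 of the 1738 reads in SH, or 10.2% (exact interval 8.86 to 11.8%), and 442 of the 1756 in YK, or 25.2% (23.2 to 27.3%), a difference of 14.9 percentage points. The near-equal sums of raw reads also rest on Thhalv10001581m.g, without which the other 5 loci had 449 reads in SH and 742 in YK (log2 ratio 0.72, interval 0.55 to 0.90). This gene held 74.2% in SH (interval 72.0 to 76.2%) and 57.7% in YK (55.4 to 60.1%). Thhalv10001579m.g kept a similar part, 9.38% in SH (interval 8.05 to 10.8%) and 9.11% in YK (7.81 to 10.6%). A share of reads within a library does not depend on how the libraries are scaled. The pair was chosen by its ratio, so these shares are a description as well.

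TI2 sits in a second group of 4 loci, whose best hits encode trypsin inhibitors or the related knottins, small proteins with a knot of disulfide bonds. Thhalv10001746m.g (hit AT2G43535) gave 82 SH and 77 YK reads (log2 ratio -0.09, 95% limits -0.56 to 0.38). The adjacent loci Thhalv10001701m.g and Thhalv10001696m.g share the hit AT2G43550. The latter gave 127 SH and 98 YK reads (log2 ratio -0.37, 95% limits -0.77 to 0.02). Thhalv10001701m.g was much lower, with 5 and 11 (log2 ratio 1.06, 95% limits -0.50 to 3.01; exact binomial test, adjusted p = 0.582). Of the 3 loci other than the chosen TI2, all tested, 1 had at least 2-fold more reads in YK, against 10.7% of all genes. It was Thhalv10001701m.g with its few reads, which the test did not call. The median log2 ratio of the 3 was -0.09.

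As in the chitinase cluster, the summed reads of this group were close, 245 in SH and 269 in YK (log2 ratio 0.13, interval -0.12 to 0.39), while the make-up differed. TI2 held 31 of the 245 reads in SH, or 12.7% (interval 8.76 to 17.5%), and 83 of the 269 in YK, or 30.9% (25.4 to 36.7%), a difference of 18.2 percentage points. Thhalv10001696m.g, the most abundant locus of the group, held 51.8% in SH (interval 45.4 to 58.2%) and 36.4% in YK (30.7 to 42.5%). With Thhalv10001705m.g, which stands inside the group but has no hit, counted as well, the sums were 264 reads in SH and 335 in YK (log2 ratio 0.34, interval 0.11 to 0.58), and the TI2 share was 11.7% in SH and 24.8% in YK. Without Thhalv10001696m.g the log2 ratio of the sums was 0.53 (interval 0.19 to 0.89), so that the closeness of the sums depends on which loci are counted. It also depends on the scaling, as the 4 loci together had 508 RPM in SH and 623 RPM in YK. TI2 was chosen by its ratio, so these shares too are a description. A larger share for TI2 also lowers the shares of the other loci.

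**Figure D4:**
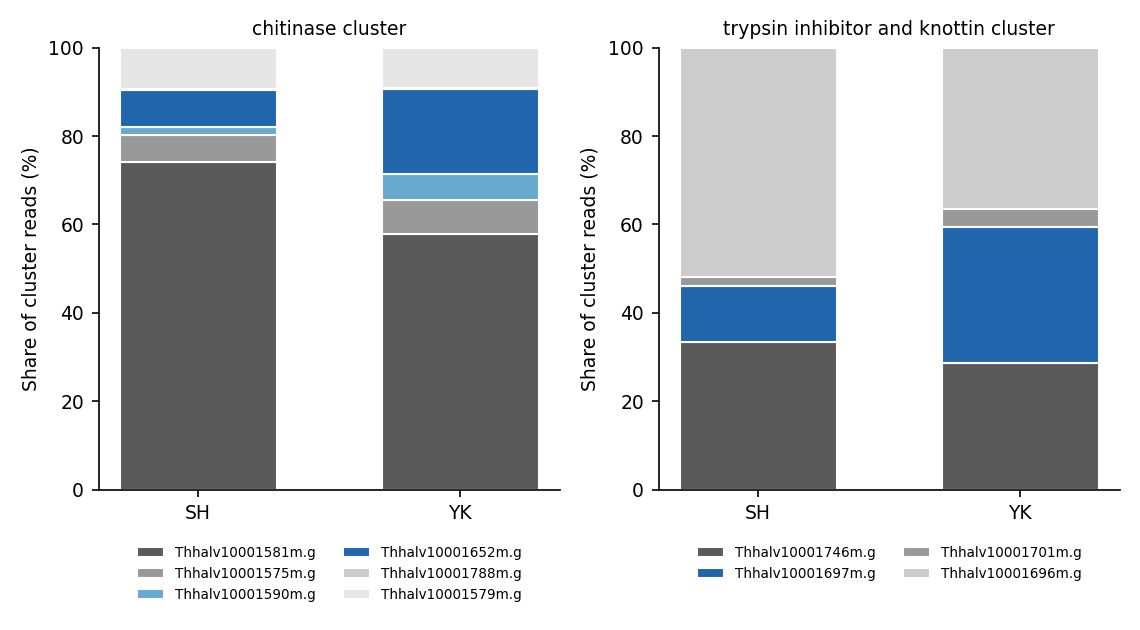
Share in percent of the reads of the 6 chitinase loci (left) and of the 4 trypsin inhibitor and knottin loci (right) that fell on each locus, in the SH and YK libraries; the chitinase pair and TI2 (Thhalv10001697m.g) are in blue, the other loci in grey. The blue part is 10.2% in SH and 25.2% in YK on the left, and 12.7% and 30.9% on the right.

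Over the whole scaffold, neighbouring copies gave mixed results. Neighbouring loci with the same best hit formed 7 pairs, of which 4 had at least 10 reads on both loci. Apart from the chosen chitinase pair, both copies had at least 2-fold more reads in YK in 1 of the other 3, the pair with the hit AT2G46430 (CNGC3, a cyclic nucleotide-gated channel). It rests on few reads, with 7 and 22 reads at Thhalv10001335m.g in SH and YK, and 0 and 17 at Thhalv10001345m.g. In the remaining 2 pairs, those of AT2G43570 and AT2G43550 already described above, the copies had log2 ratios of opposite sign. These signs are uncertain, since both intervals of the AT2G43550 pair include 0 and Thhalv10001575m.g was not past the p threshold. Among all 213 pairs of tested neighbours on the scaffold, 3 had both loci at least 2-fold higher in YK.

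Other defense genes could be followed only where a best hit was given. None of the 12 genes listed as other protease inhibitors was found. Only 1998 annotation rows were at hand for the 17888 genes, so not being found says nothing of expression. Of the 10 genes for pathogenesis-related proteins and chitin perception, 3 were found, all on other scaffolds. Thhalv10003127m.g, whose hit AT3G57240 (BG3) encodes a beta-1,3-glucanase, an enzyme that cuts another fungal wall polymer, gave 384 SH and 230 YK reads (log2 ratio -0.74; exact binomial test, adjusted p = 2.99e-08). This runs opposite to the chitinase pair, but stays within 2-fold and was not called. Thhalv10003126m.g, with the glucanase hit AT3G57270, gave 14 and 7 (log2 ratio -0.95; exact binomial test, adjusted p = 0.546). Thhalv10000091m.g, with the hit AT2G23770, a LysM receptor-like kinase gene of chitin perception, had 1 read in SH and 3 in YK, too few for the test.

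Most of the remaining flanking loci had few reads. Thhalv10001621m.g, whose hit AT2G43560 encodes a peptidyl-prolyl isomerase of the FKBP type, stands between TI2 and the chitinases and gave 58 SH and 60 YK reads (log2 ratio 0.05, 95% limits -0.50 to 0.60). Thhalv10001327m.g had 15 and 10 reads, and Thhalv10001371m.g (hit AT2G43650, EMB2777) had 16 and 8 (log2 ratio -0.96, 95% limits -2.43 to 0.31). Thhalv10001299m.g gave 0 SH reads, and 1 YK read. A count of 0 is given a floor of 3 reads, or 6.22 RPM in SH, a one-sided limit and so lower than the two-sided intervals used elsewhere. Thhalv10001554m.g had 19 and 32 reads and Thhalv10001685m.g had 1 and 5; these loci overlap, and without strand their reads cannot be assigned with certainty.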

How the data were processed

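Reads were measured in 1 library each of SH and YK. The authors trimmed the pyrosequencing reads, aligned them to the SH genome (Phytozome v9.1; GMAP in the methods, GSNAP in the submitters' processing notes) and used HTSeq v0.5.4p5 to count those mapped uniquely to each gene, without strand, after adding loci assembled by Cufflinks. The deposited counts are raw. The authors' own comparison, made with DESeq v1.14.0, is also in the table as a fold column, a p-value column and its adjusted form, none of which was used. The paper's list of candidate genes from that comparison holds neither the chosen genes nor the flanking loci called here. Since YK reads were aligned to the SH genome, mismatches could lower YK counts; this was not tested.

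The 1 blank row was left out. Ratios, Clopper-Pearson intervals and the two-sided exact binomial test (genes with at least 10 reads; adjusted p under 0.05 and at least 2-fold) were computed with Python 3.11.15 and scipy 1.17.1, and TMM and exact tests with edgeR 4.0.16. With no replicates, edgeR's quasi-likelihood test could not be fitted. Scripts were tested on simulated data. Best hits came from the first 1998 rows of the study's gene annotation. None of the 3 gene IDs matched RefSeq.

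The 3 genes, the lists and the neighbourhood were chosen with earlier results of these data known. The leaf photosynthesis list was added after the data were seen. Named loci are the 3 genes, all loci within 25 kb, list members found by hit, scaffold 22 loci with at least 50 reads and a ratio as high, and, named after their values were seen, the AT2G46430 pair. Alternatives covered scaling, reads added, read minimum, fold, test, window width and cluster membership. No sequences were used, so the planned motif and protein comparisons were not run.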

Additional observations from a re-analysis of the deposited data

How the results depend on the processing

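The log2 ratios of the 3 genes stayed within their counting intervals under all 5 alternatives run for each (3 scalings, 0 or 2 reads added), from 1.57 to 1.77 for Thhalv10001590m.g, 1.20 to 1.39 for Thhalv10001652m.g and 1.36 to 1.57 for TI2. The scalings shift every log2 ratio by only 0.16, -0.03 or 0.05, and reads added change such counts little. No value could therefore leave its interval, and this is no check of the differences. Without its most abundant other gene, the difference in share between YK and SH was 19.9 percentage points in the chitinase cluster (without Thhalv10001581m.g) and 22.3 in the trypsin inhibitor group (without Thhalv10001696m.g), and 13.0 in that group with Thhalv10001705m.g added. The chitinase cluster holds no locus without a hit, so that alternative gave no value. Over all genes, the numbers at least 2-fold higher and lower in YK were 3416 and 3309 with no minimum of reads, 500 and 569 with 20 reads and 148 and 216 with 50, since fewer genes enter. With total reads as the scaling they were 1400 and 793, and the exact binomial calls turned from 275 higher and 389 lower in YK to 438 and 310. Among flanking loci, 5 of 15 passed 2-fold with no minimum of reads, beside 3416 higher and 3309 lower of all 17888 genes. Within 100 kb, 5 of 29 loci with at least 10 reads passed, against 21.4% of all genes tested. The exact test of edgeR called 200 genes at a coefficient of variation of 0.2 and 36 at 0.4, with 0 flanking loci at either, and the 4-fold rule 315 genes and 0 flanking loci. No paired analysis was possible because each accession has 1 library. Depth limits the low loci most: an interval for 16 reads spans several log2 units.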
